A study of Homo sapiens with 6 samples.

Results

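The subunit genes of the respiratory chain were compared between RH30-IκBα SR cells and RH30 vector cells. The list held 57 nuclear genes, chosen by name for complexes I to IV and the electron carrier cytochrome c, and 50 of them were measured with a feature of their own among 22411 genes in all. The remaining 7 were not analysed here: the features of NDUFA13, NDUFB8, NDUFS8, UQCRH and COX7C also listed another gene, and no feature listed SDHB or UQCRFS1. RH30 is an established human cell line from an alveolar rhabdomyosarcoma. Both groups were RH30 cells grown in DMEM with 10% fetal bovine serum and infected with virus: the SR group (3 arrays) received the IκBα super repressor, a mutant IκBα that is not degraded on stimulation and so keeps classical NF-κB inactive, and the vector group (3 arrays) received the virus without it. The super repressor was expressed from the plasmid pBabe-puro. Each group was 1 infected line, so other differences between the lines cannot be told apart from the transgene. Total RNA was hybridized to the Human Transcriptome Array, and the values, as the authors deposited them, are log2 signals.

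The respiratory chain passes electrons from NADH (complex I) and succinate (complex II) through ubiquinone, complex III and cytochrome c to oxygen (complex IV). Complexes I, III and IV pump protons across the inner mitochondrial membrane, and the gradient drives ATP synthase. Most subunits are encoded in the nucleus, while a few central ones of complexes I, III and IV are encoded in mitochondrial DNA, and none of 13 listed mitochondrially encoded genes was measured here. In muscle, which relies on oxidation, the chain is abundant. The paper measured oxygen consumption in the same pair of lines, so the arrays bear on whether the message levels of the subunits differ between them.

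The array medians over all features lay between 4.344 and 4.398. NFKBIA, the gene for IκBα, carried by the SR virus, read 13.62 ± 0.10 in SR cells (SD, n = 3) against 11.62 ± 0.04 in vector cells (SD, n = 3). Of 12 markers of the rhabdomyosarcoma and muscle lineage, 9 lay at or above the median gene (5.13). The exceptions were MYH3, TFAP2B and CDH3. Markers of blood cells (4), epithelium (4) and endothelium (3) all lay below it in both groups, between 3.53 and 4.45, and of these PECAM1 was called lower (-0.26). The muscle markers did not all stay level: DES was higher in SR cells by 1.00, CHRNA1 by 0.67 and MYOD1 by 0.62 on the log2 scale, FGFR4 by 0.19, and MYOG fell by 1.17 (all called). Their part in the results on the chain was not tested. The series describes cultures grown in triplicate, without saying when they were split, so the p-values given here reflect how far 3 arrays of a line varied, and that variation may be technical. The median over the subunit genes was 8.57, 8.74 and 8.62 in the vector arrays, with 8.59, 8.57 and 8.62 in the SR arrays, with vector replicate 2 the highest and the groups overlapping.

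The promoters of the subunit genes that changed most are printed here, since their letters can be set beside the direction of change given further on. They are the 7 genes past the test with a change of over 0.3 on the log2 scale. NDUFS6, SDHA, COX4I1 and COX6B1 were lower in SR cells, and NDUFB7, CYCS and COX5A were higher. Each is 300 bases long, from 250 bases before the start of the gene to 50 after it, from RefSeq on GRCh38.p14, written 5′ to 3′ on the strand of the gene. Capitals mark the letters GCGCATGC or GCGCAGGC (part of the motif of NRF1, nuclear respiratory factor 1), CCGGAAG (the ETS family, which includes GABPA) and ATGGCGGC (YY1), found on either strand.
NDUFS6 (chr5:1801157-1801456, plus strand): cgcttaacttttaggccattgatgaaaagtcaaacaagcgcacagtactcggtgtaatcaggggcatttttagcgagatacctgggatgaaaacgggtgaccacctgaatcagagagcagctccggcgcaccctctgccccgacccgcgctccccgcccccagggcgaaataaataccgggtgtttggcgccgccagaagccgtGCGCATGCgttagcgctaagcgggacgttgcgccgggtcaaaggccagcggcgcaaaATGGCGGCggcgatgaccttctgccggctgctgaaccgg
SDHA (chr5:218070-218369, plus strand): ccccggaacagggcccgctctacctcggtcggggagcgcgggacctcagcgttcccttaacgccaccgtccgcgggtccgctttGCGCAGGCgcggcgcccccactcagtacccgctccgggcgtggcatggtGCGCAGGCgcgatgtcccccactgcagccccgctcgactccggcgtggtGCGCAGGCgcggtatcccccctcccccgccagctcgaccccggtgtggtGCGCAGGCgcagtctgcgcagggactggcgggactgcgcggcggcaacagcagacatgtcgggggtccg
COX4I1 (chr16:85799445-85799744, plus strand): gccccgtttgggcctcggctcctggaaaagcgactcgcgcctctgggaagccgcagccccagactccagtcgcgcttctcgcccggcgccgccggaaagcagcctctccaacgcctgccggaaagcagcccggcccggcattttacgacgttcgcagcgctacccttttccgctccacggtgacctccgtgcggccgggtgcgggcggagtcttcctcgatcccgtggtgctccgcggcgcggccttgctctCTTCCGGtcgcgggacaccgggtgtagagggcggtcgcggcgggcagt
COX6B1 (chr19:35648073-35648372, plus strand): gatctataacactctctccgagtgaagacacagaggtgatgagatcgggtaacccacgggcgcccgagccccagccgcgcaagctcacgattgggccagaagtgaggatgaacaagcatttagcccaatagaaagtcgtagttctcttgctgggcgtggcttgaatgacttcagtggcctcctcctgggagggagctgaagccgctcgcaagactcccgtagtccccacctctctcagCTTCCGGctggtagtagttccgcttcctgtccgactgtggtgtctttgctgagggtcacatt
NDUFB7 (chr19:14572017-14572316, minus strand): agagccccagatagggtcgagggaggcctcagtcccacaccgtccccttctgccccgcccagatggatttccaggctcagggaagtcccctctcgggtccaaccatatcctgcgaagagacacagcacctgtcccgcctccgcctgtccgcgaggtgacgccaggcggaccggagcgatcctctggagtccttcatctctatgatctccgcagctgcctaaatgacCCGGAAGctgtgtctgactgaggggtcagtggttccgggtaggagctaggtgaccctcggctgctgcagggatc
CYCS (chr7:25125211-25125510, minus strand): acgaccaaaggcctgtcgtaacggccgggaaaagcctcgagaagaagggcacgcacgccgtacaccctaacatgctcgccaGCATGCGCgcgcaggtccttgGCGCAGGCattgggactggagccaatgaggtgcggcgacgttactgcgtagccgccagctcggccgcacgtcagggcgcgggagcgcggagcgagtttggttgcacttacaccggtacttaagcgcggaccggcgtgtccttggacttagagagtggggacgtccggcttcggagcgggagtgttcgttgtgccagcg
COX5A (chr15:74938024-74938323, minus strand): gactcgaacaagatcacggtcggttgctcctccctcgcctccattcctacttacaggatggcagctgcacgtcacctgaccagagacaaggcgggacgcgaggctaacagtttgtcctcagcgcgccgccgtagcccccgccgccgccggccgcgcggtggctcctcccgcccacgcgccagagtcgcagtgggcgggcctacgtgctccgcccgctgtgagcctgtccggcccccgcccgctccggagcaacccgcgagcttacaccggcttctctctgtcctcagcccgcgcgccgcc

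No motif was shared by the genes that fell and absent from those that rose. GCGCATGC lay in the promoters of CYCS, which was higher, and of NDUFS6, which was lower. GCGCAGGC lay in CYCS and stood 4 times in SDHA, at equal distances. CCGGAAG lay in NDUFB7, which was higher, and in COX4I1 and COX6B1, which were lower. ATGGCGGC lay in NDUFS6, which was lower, and in none of the other promoters printed. COX5A held none of the letters searched. The 2 searched forms of the NF-κB motif, GGACTTTCC and GGAATTTCC, were found in none of the 50 subunit promoters in the table, and in 0.379% and 0.404% of 15842 promoters of protein-coding genes. In the same 50 promoters, which were matched by symbol and include genes not measured, GCGCATGC was found in 10 (20%, against 4.26% of all promoters) and ATGGCGGC in 11 (22%, against 4.49%). CCGGAAG was found in 14 (28%, against 14.2%) and GCGCAGGC in 8 (16%, against 8.64%). Motifs were counted once per promoter on either strand, and GCGCATGC overlaps its own reverse complement where the full palindrome is present. The table held no promoter for NDUFB5, NDUFB9, NDUFS5, SDHC, UQCRB, CYC1 and COX6C.

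Over the 50 measured subunit genes, 5 were higher and 5 were lower in SR cells, and 40 did not pass the test (limma across all genes, Benjamini-Hochberg adjusted p under 0.05). The higher genes were CYCS, COX5A, NDUFB7, NDUFS5 and UQCRC2. The lower genes were NDUFS6, COX6B1, COX4I1, SDHA and COX6C. Over all 22411 genes, 18.3% passed the test, 9.76% higher and 8.58% lower, so the share of the subunit genes (20%) was near that of all genes. All but NDUFS7 of the measured subunit genes lay at or above the median gene, and of the genes at or above it 34.2% passed, a larger share than among the subunit genes. The median log2 fold change over the subunit genes was -0.02 (quartiles -0.14 and 0.09), against 0 over all genes. The groups did not overlap in 20 of 50 subunit genes (40%), against 29.6% of all genes and 52% of the genes at or above the median gene. The exact permutation test of a single gene cannot go below p = 0.1 with 3 arrays against 3, two-sided.

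**Figure D1:**
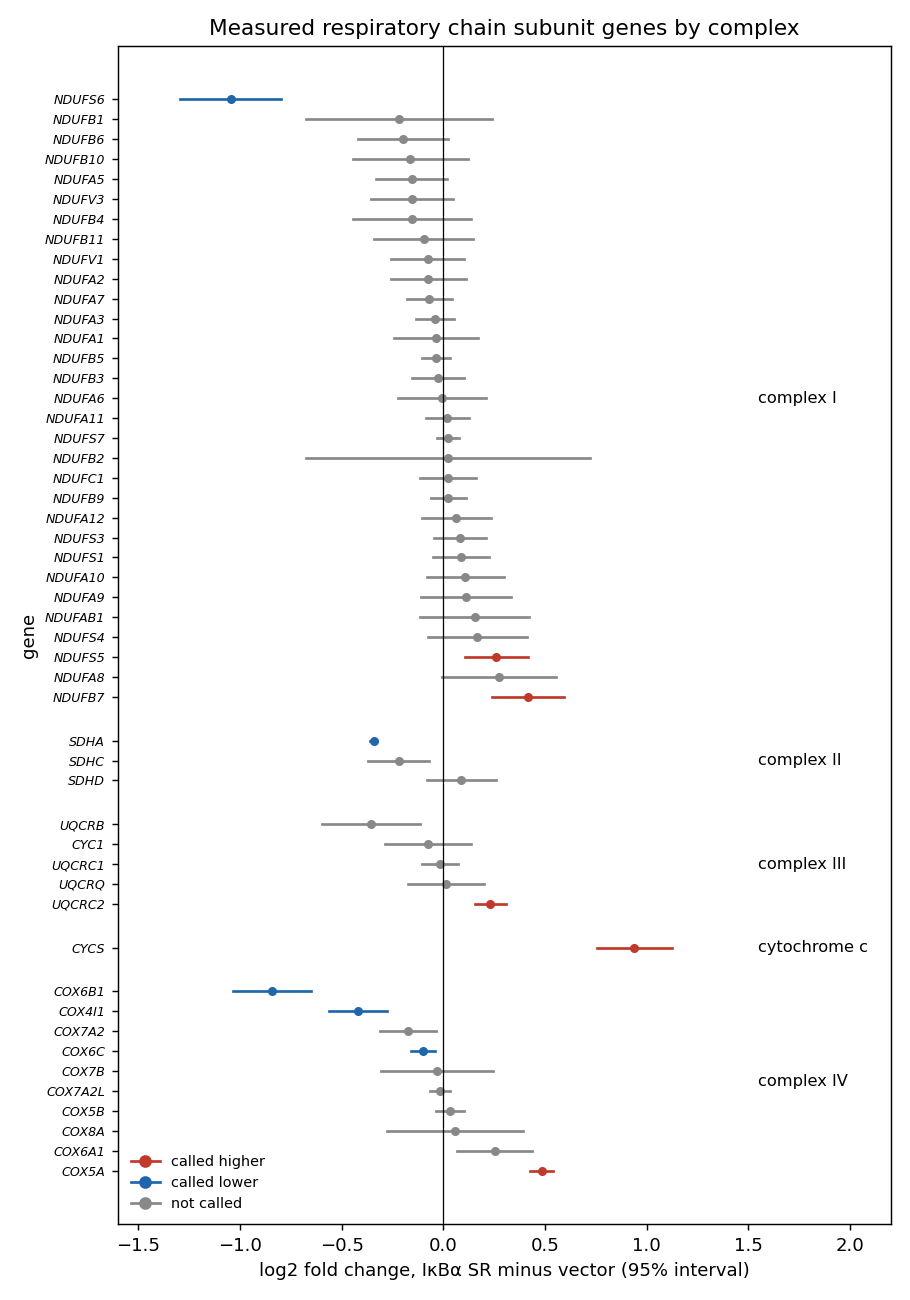
Log2 fold change (IκBα SR minus vector, n = 3 and 3 arrays) of the 50 measured subunit genes by complex, with bars for the 95% interval from limma. Genes called higher are red, called lower blue and not called gray: most points lie near 0, and NDUFS6, COX6B1 and CYCS lie farthest from it.

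The count of higher genes fell whichever array was left out. It was 3 without vector replicate 1, without vector replicate 3 or without SR replicate 3, where NDUFS5 and NDUFB7 were lost, and 4 without each of the others. The count of lower genes was 4 to 6. Over all genes the number called also fell, from 4110 to between 2989 and 3791. The 7 genes CYCS, COX5A, UQCRC2, NDUFS6, COX6B1, COX4I1 and SDHA kept their call without each array in turn.

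Complex I oxidizes NADH and is the largest complex of the chain. Of 31 measured subunit genes, 2 were higher, 1 was lower and 28 did not pass, with a median log2 fold change of -0.01. NDUFS6, which encodes a zinc-binding subunit of the arm that oxidizes NADH, read 8.12, 8.41 and 8.13 in the vector arrays, against 7.20, 7.20 and 7.12 in the SR arrays. Every SR array lay below every vector array. The difference, SR minus vector, was -1.04 on the log2 scale (standard error, SE, 0.09, 95% interval -1.29 to -0.80, limma adjusted p = 0.0027), a level 2.06 times as high in vector cells. None of the other 8 listed genes of that arm passed. Among them were NDUFV1 (-0.08) and NDUFS1 (0.09), which carry the flavin and most of the iron-sulfur clusters, and NDUFS4 (0.17). NDUFV2, of the same arm but outside the list of 57, was higher by 1.12 (limma adjusted p = 0.0029). Of the part that reduces ubiquinone, none of NDUFS3 (0.08), NDUFS7 (0.02), NDUFA5 (-0.16) and NDUFA9 (0.11) passed.

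The complex I genes that were higher encode accessory subunits of the membrane arm, where 2 of 18 measured genes passed. NDUFB7 read 7.70, 7.81 and 7.71 in the vector arrays, against 8.03, 8.21 and 8.23 in the SR arrays. The arrays of both groups lay apart, by 0.42 (SE 0.07, limma adjusted p = 0.016). The call held in 12 of 18 alternatives and was lost without vector replicate 1 or 3 or SR replicate 2 or 3 (limma adjusted p from 0.060 to 0.067). NDUFS5 read 13.66, 13.69 and 13.61 in the vector arrays, against 14.00, 13.80 and 13.94 in the SR arrays. The groups lay apart here as well, but the change was smaller, 0.26 (SE 0.06, limma adjusted p = 0.044), and its call held in 9 of 18 alternatives. NDUFS5 lost it without any array but SR replicate 2 (limma adjusted p from 0.10 to 0.15), and RefSeq lists 7 pseudogenes of it. The largest change of the complex that did not pass was in NDUFA8 (0.27, limma adjusted p = 0.21), whose SR arrays (10.58 to 10.78) lay just above the vector arrays (10.21 to 10.53). NDUFB2 had the widest interval of the subunit genes, with a standard error of 0.27 against a median of 0.07.

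Complex II, succinate dehydrogenase, feeds electrons from the TCA cycle into the chain, and 3 of its 4 subunit genes were measured. SDHA, which encodes the catalytic flavoprotein, read 7.91, 7.90 and 7.92 in the vector arrays, while every SR array read 7.56. The groups lay apart by -0.34 on the log2 scale (SE 0.01, limma adjusted p = 5.8e-05), or 1.27 times as high in vector cells. Since the SR values were identical, the standard error rests on the vector arrays and on the spread shared across genes. RefSeq lists 4 pseudogenes of SDHA, near copies whose probes may share its signal. SDHAP3 differed by -0.25 (limma adjusted p = 0.0013) and SDHAP4 by 0.18 (limma adjusted p = 0.073). SDHC, a membrane anchor, differed by -0.22 without passing the test (limma adjusted p = 0.071), although its SR arrays (10.46 to 10.54) lay below its vector arrays (10.64 to 10.83). SDHD, the other anchor, differed by 0.09 (limma adjusted p = 0.51).

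Complex III passes electrons from ubiquinol to cytochrome c. UQCRC2, which encodes a core protein, was the 1 gene of 5 measured that passed, with 13.29, 13.32 and 13.26 in the vector arrays, against 13.51, 13.49 and 13.57 in the SR arrays. The groups lay apart by 0.23 (SE 0.03, limma adjusted p = 0.0071). The other core protein gene, UQCRC1, differed by -0.01 (95% interval -0.10 to 0.07). UQCRB, which encodes a subunit near the ubiquinone site, had the largest change of the uncalled genes, -0.36 (limma adjusted p = 0.068). Its vector arrays read 6.39, 6.38 and 6.14 and its SR arrays 5.94, 5.85 and 6.04, so the groups did not overlap. CYC1, the gene for cytochrome c1, differed by -0.08 and UQCRQ by 0.01 (both uncalled).

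CYCS, which encodes the soluble carrier cytochrome c, rose most. It read 14.00, 14.17 and 13.96 in the vector arrays, against 14.94, 14.95 and 15.06 in the SR arrays, with a wide gap between the groups. The difference was 0.94 (SE 0.07, 95% interval 0.75 to 1.12, limma adjusted p = 0.0016), or 1.92 times as high in SR cells. RefSeq lists 45 pseudogenes of CYCS by name, and probes of the gene may also read their transcripts. CYCSP52, the 1 measured here, differed by 0.61 (SE 0.40, limma adjusted p = 0.46).

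Complex IV, cytochrome c oxidase, reduces oxygen. Of 10 measured nuclear subunit genes 1 was higher, 3 were lower and 6 did not pass, and the genes that passed did not go 1 way. COX5A read 10.18, 10.24 and 10.25 in the vector arrays, against 10.71, 10.70 and 10.72 in the SR arrays, a difference of 0.48 (SE 0.02, limma adjusted p = 3.9e-04). COX4I1, the isoform of subunit IV found in most tissues and a partner of COX5A in an early assembly step, read 10.08, 10.13 and 9.98 in the vector arrays, against 9.58, 9.64 and 9.70 in the SR arrays. Its SR arrays lay below all vector arrays, with a difference of -0.42 (SE 0.05, limma adjusted p = 0.0077). COX6B1, a subunit of the side that faces cytochrome c, read 11.27, 11.40 and 11.25 in the vector arrays, against 10.34, 10.50 and 10.54 in the SR arrays. The gap was wide, at -0.84 (SE 0.07, limma adjusted p = 0.0023), or 1.79 times as high in vector cells. COX6C, an accessory subunit of the membrane part, read 6.11, 6.10 and 6.07 in the vector arrays, against 6.03, 5.96 and 6.00 in the SR arrays. The groups lay close without overlap, at -0.10 (SE 0.02, limma adjusted p = 0.046). The call held in 7 of 18 alternatives and was lost without any array but SR replicate 1 (limma adjusted p from 0.083 to 0.15). RefSeq lists 18 pseudogenes of COX6C and 7 of COX6B1, which makes both values less certain. COX6A1 had the largest change of the uncalled genes of the complex, 0.25 (limma adjusted p = 0.083). RefSeq lists 6 pseudogenes of COX6A1, and COX6A1P2 was higher by 0.34 (limma adjusted p = 0.048). COX8A, with 3 of its 6 values above 16, differed by 0.06.

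**Figure D2:**
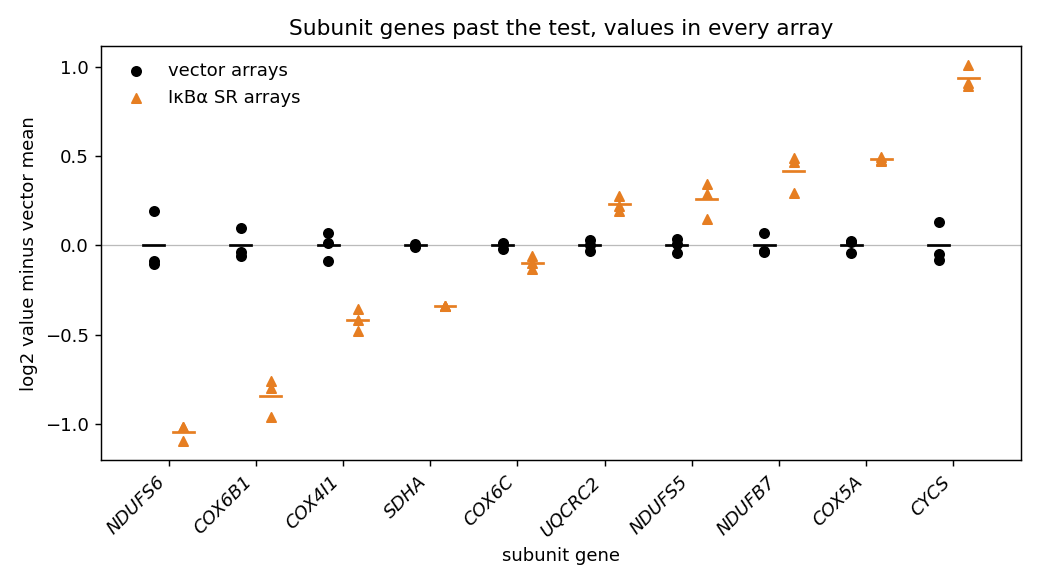
Values of the 10 subunit genes past the test in every array, as log2 value minus the mean of the vector arrays. Circles are vector arrays, triangles SR arrays and short lines the group means. In all 10 genes the arrays of both groups lie apart, which largely follows from choosing them by the test on these same arrays.

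Among the 40 genes that did not pass, 18 had a higher and 22 a lower mean in SR cells, with log2 fold changes from -0.36 to 0.27. The arrays of both groups lay apart in 10 of them. Called and uncalled together, this held for 40% of the subunit genes. It held for 29.6% of all genes and 52% of the genes at or above the median gene, so such a gap was common. Of complex I these were NDUFA8, NDUFA10 (0.11), NDUFS4 (0.17), NDUFB4 (-0.15), NDUFB6 (-0.20) and NDUFV3 (-0.15), all accessory subunits. The others were SDHC, UQCRB, COX6A1 and COX7A2 (-0.17, with an equal value of 9.02 in every SR array). COX7A2L, which helps complexes III and IV to join into supercomplexes, differed by -0.02 (8.06, 8.10 and 8.10 in vector arrays against 8.04, 8.07 and 8.09 in SR arrays). NDUFAB1, the acyl carrier protein of mitochondria, differed by 0.16, and its groups overlapped. For 37 of the 40 the 95% interval excluded a change of 1.5-fold or more in either direction. The exceptions were NDUFB1 (-0.67 to 0.24), NDUFB2 and UQCRB (-0.60 to -0.11). A change of at least 1.5-fold was found in NDUFS6, COX6B1 and CYCS alone. Accessory subunits, which do not carry the redox chemistry, had 4 higher and 4 lower of 41 measured, and the core and redox-active ones 1 higher and 1 lower of 9. UQCRC1 and UQCRC2, called core proteins by name, hold no redox center and were counted as accessory.

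The subunit genes lie on 18 chromosomes, and their changes were set beside those of the genes around them. For each subunit gene the 10 nearest protein-coding genes on each side with a level at or above the median gene were taken in the order of the RefSeq gene table of GRCh38.p14. Only the order of genes was used, because the sources used here name no build for the array. All 10 subunit genes past the test had the same sign as the median log2 fold change of their neighbors. Among the 40 uncalled subunit genes, 23 did. Of 3609 called genes among 9573 placed at or above the median gene, 2857 (79.2%) did. Across the 50 subunit genes the change and the neighbor median had a Pearson r of 0.78 and a Spearman rho of 0.73, against 0.52 and 0.55 across the 9573 genes. This is a description across genes, which are not independent: neighbor sets of nearby subunit genes share genes, and all values come from the same 6 arrays.

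**Figure D3:**
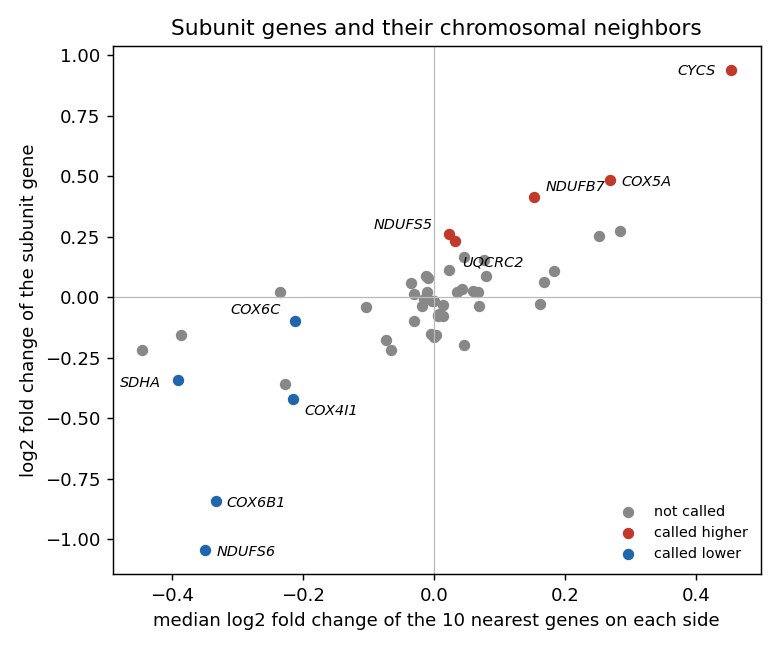
Log2 fold change of each of the 50 subunit genes (vertical) against the median log2 fold change of the 10 nearest genes on each side (horizontal), colored by call. The 5 genes called higher lie at the upper right and the 5 called lower at the lower left.

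NDUFS6 and SDHA lie near each other at the start of chromosome 5. SDHA is so close to the end that 1 gene was left on that side, and all 11 of its neighbors were lower in SR cells (median -0.39), and of the 20 around NDUFS6 16 were lower and 0 higher (median -0.35). These sets overlap and hold each other. TRIP13 and CLPTM1L, between them, fell by 1.18 each, and MRPL36, a gene for a mitochondrial ribosomal protein beside NDUFS6, fell by 0.36. The change of NDUFS6 lay 0.70 below the median of its neighbors on the log2 scale, while that of SDHA lay within 0.05 of it.

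Around COX6B1 on chromosome 19, 12 of 20 neighbors were lower and 0 higher (median -0.33), among them PSENEN (-1.11), which encodes a subunit of γ-secretase. Around COX4I1 on chromosome 16, 7 of 20 were lower and 0 higher (median -0.22). EMC8, whose start lies 151 bases from that of COX4I1 on the other strand, differed by -0.37 (limma adjusted p = 0.20). CCDC127, which starts 167 bases from SDHA in the same way, fell by 0.47 (limma adjusted p = 0.049). Around COX6C 11 of 20 were lower and 1 higher (median -0.21), and the uncalled UQCRB lies nearby, with 9 lower and 1 higher (median -0.23).

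Around CYCS on chromosome 7, 16 of 20 neighbors were higher and 0 lower (median 0.45). Around COX5A on chromosome 15, 10 of 20 were higher and 0 lower (median 0.27), and around NDUFB7 on chromosome 19, 9 of 20 were higher and 0 lower (median 0.15). For UQCRC2 and NDUFS5 the neighbors were close to 0, with medians of 0.03 and 0.02. Around UQCRC2 3 of 20 were higher and 2 lower, and around NDUFS5 3 were higher and 0 lower. The uncalled COX6A1 and NDUFA8 had log2 fold changes (0.25 and 0.27) next to the medians of their neighbors (0.25 and 0.28). NDUFB1, NDUFA5 and NDUFB2 had log2 fold changes of -0.22, -0.16 and 0.02, above the medians of their neighbors (-0.45, -0.39 and -0.24). The 95% interval of NDUFB1 (-0.67 to 0.24) included its neighbor median, as did that of NDUFB2 (-0.68 to 0.72). The interval of NDUFA5 (-0.33 to 0.02) did not. How far the neighbors account for the values of the subunit genes was not tested.

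**Figure D4:**
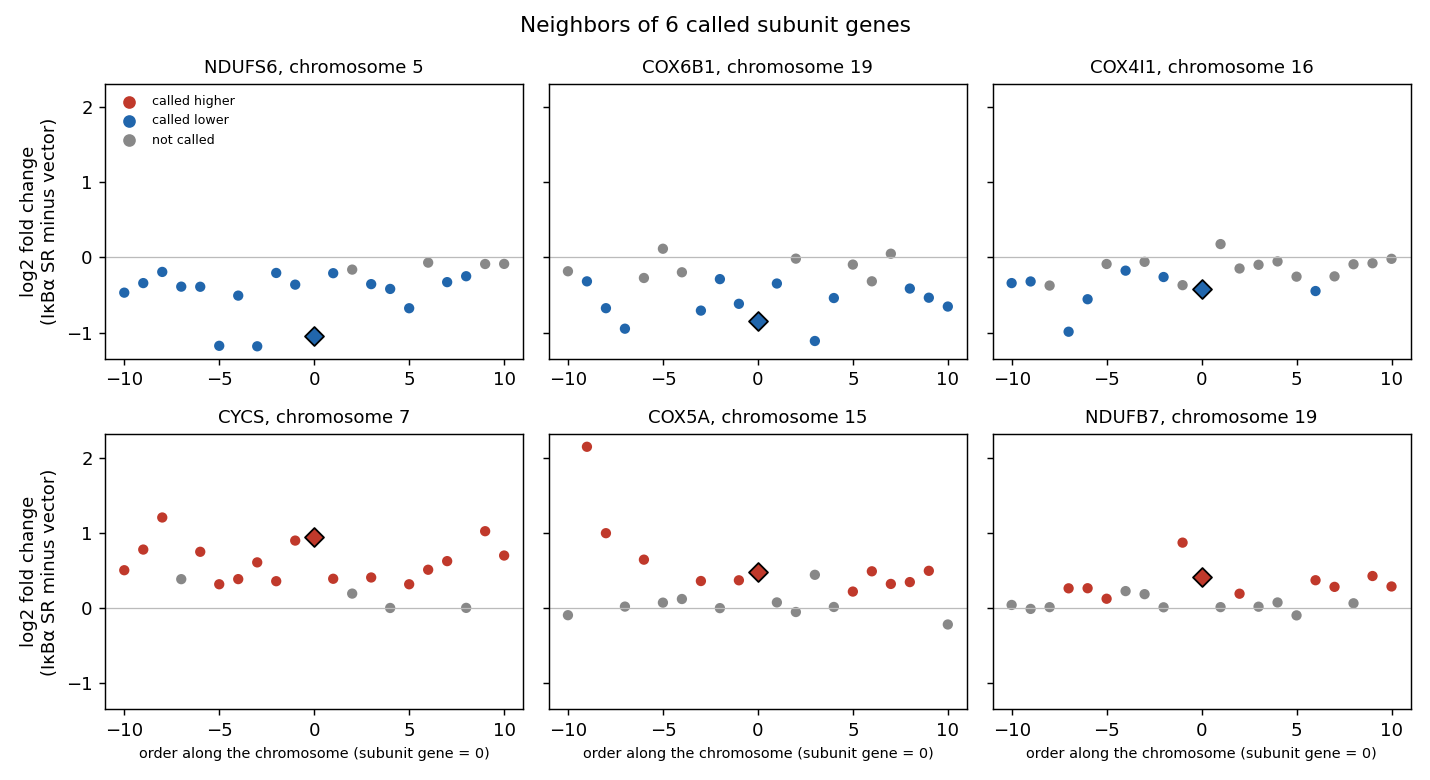
Log2 fold change (IκBα SR minus vector) of 6 called subunit genes (diamonds at 0) and of the 10 nearest genes on each side in chromosome order (circles), colored by call. Around NDUFS6, COX6B1 and COX4I1 no neighbor was called higher, and around CYCS, COX5A and NDUFB7 none was called lower.

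Other genes of the pathway were read from the same fit. Of 82 measured genes in lists of other subunits, tissue isoforms, ATP synthase, assembly factors and coenzyme Q synthesis, 15 were higher and 7 lower. That was 26.8%, against 18.3% of all genes and 34.2% of the genes at or above the median gene. Without SR replicate 3 the counts were 9 and 3, and the lower count was 4 without SR replicate 1 and 3 without SR replicate 2. NDUFV2, a core subunit of the NADH-oxidizing arm of complex I, is not in the list of 57. It was higher by 1.12 (SE 0.10, limma adjusted p = 0.0029). Around it on chromosome 18 all 20 neighbors were higher (median 1.09). Of 17 measured ATP synthase genes, ATP5F1A, the gene for the alpha subunit, was higher (0.46), ATP5PD (-0.67) and ATP5PB (-0.21), of the stalk, were lower, and 14 did not pass. None of 5 measured tissue isoforms, such as COX7A1 of muscle, passed. All of them lay below the median gene (5.13), with COX7A1 at 3.67 in SR cells and 3.73 in vector cells. At such low levels the lack of a call does not show that they stayed level.

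Of 17 assembly factors of complex I, 4 were higher, NDUFAF4 (0.96), NDUFAF5 (0.77), TMEM126B (0.59) and COA1 (0.55), and ACAD9 was lower (-0.23). Of 19 measured for complex IV, 7 were higher, led by COA4 (1.87), COX20 (0.96), COX19 (0.68) and COX10 (0.60). COX10 is an enzyme of heme A synthesis. LRPPRC, which stabilizes mitochondrial messages, was lower (-0.14). The shares called were 29.4% for complex I factors and 42.1% for complex IV factors. They stand against 18.3% of all genes and 34.2% of the genes at or above the median gene. COX19 was low, at 4.75 in vector cells and 5.43 in SR cells, near the median gene (5.13). COA4 lies among genes that were higher in 18 of 20 cases (neighbor median 1.79). SDHAF4, which helps to insert the flavoprotein into complex II, fell by 1.37 (limma adjusted p = 0.0034). Its neighbors had a median of -0.01, with 7 higher and 7 lower. SDHAF2 (-0.17) and, for complex III, UQCC1 (-0.08) were also lower. In coenzyme Q synthesis, COQ3 (0.97) and COQ5 (0.69) were higher of 11 measured. Of the 22 called genes in these lists, 20 had the sign of their neighbor median, the exceptions being COX11 (0.23, against -0.11) and COX19 (against -0.03).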

How the data were processed

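RNA of 3 vector and 3 SR samples was measured on 1 array each. The deposited log2 values came from RMA (background correction, normalization across arrays, summary of probes) in the Affymetrix Expression Console, according to the submitters' processing notes; its version is not given in the sources used here. Features with 1 gene symbol (23781 of 70523) were named through the platform annotation and RefSeq, and the brightest feature per gene was kept (22411 genes). Of these, 6147 had identical values within at least 1 group. SR and vector arrays were compared in limma (lmFit, eBayes; version 3.58.1, run under R 4.3.3), with Benjamini-Hochberg adjustment over all genes and a threshold of 0.05. Fits were tested on simulated data. Subunits past the test, the largest uncalled change of each complex, and up to 4 called genes of each other list are named. NDUFA5, NDUFB2 and further subunits were named after their values were seen. Members and lists were chosen with earlier results of these data known. The number of arrays limits the precision. Alternatives were other scalings, filters, feature rules, variance models, leaving out each array, the methods' t-test, a replicate block, a fold threshold and, for neighbors, other windows.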

Additional observations from a re-analysis of the deposited data

How the results depend on the processing

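The 10 subunit genes past the test kept their direction under every alternative run. CYCS, NDUFS6 and COX6B1 kept their call in all 18 alternatives, with adjusted p up to 0.033 from limma or the methods' t-test. COX5A (17 of 18) and SDHA (16 of 17) lost it only where 1.5-fold was required. COX6C (7 of 18) and NDUFS5 (9 of 18) depended most on the setting. The main counts were 4110 genes, 5 subunit genes higher and 5 lower, and 15 other pathway genes higher and 7 lower. A further quantile normalization gave 8 subunit genes lower (SDHC, UQCRB and COX7A2 added) and 12 other pathway genes lower. With genes at or above the median gene only, 6 subunit genes were higher (COX6A1 added) and 8 lower. With a replicate block, 2450 genes were called, with 3 subunit genes higher (CYCS, COX5A and NDUFAB1), 3 lower (NDUFS6, SDHA and COX6B1) and 4 other pathway genes lower. The deviations of arrays that share a number correlated at 0.12, -0.22 and -0.20, so the numbers were not taken to pair the arrays. The methods' t-test gave 12 other pathway genes higher and 4 lower after adjustment. Without adjustment it gave 6 subunit genes higher and 8 lower, and 22 other pathway genes higher and 12 lower. A required 1.5-fold change, stricter by construction, left 1438 genes, 1 subunit gene higher and 2 lower, and 2 other pathway genes lower. Without each array in turn, 2989 to 3791 genes were called, 3 to 4 subunit genes were higher and 4 to 6 lower, and 9 to 16 other pathway genes were higher and 3 to 7 lower. Apart from the construction named, the causes were not tested. The median over the subunit genes stayed between -0.06 and 0.01. With 5 or 20 neighbors on each side, chosen after the data were seen, all 10 called genes again shared the sign of their neighbors (Pearson r 0.69 and 0.81).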
